A study of Mus musculus with 12 samples.

Results

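The immunoglobulin variable (V) genes of the heavy chain locus (Ighv), the kappa light chain locus (Igkv) and the lambda light chain locus (Iglv) were followed through 4 stages of mouse erythroblasts. Genes whose symbol starts with Ighv, Igkv or Iglv were taken as members when their FPKM was above 0 in at least 3 of the 12 libraries. This gave 207 members among 29838 genes, out of 244 V genes listed. The members were 111 of 129 Ighv genes, 93 of 112 Igkv genes and all 3 Iglv genes. The members were chosen by detection, so their being detected is no result, and the 37 listed V genes left out reached at most 5.55 FPKM in any library. At the limit, 11 members were above 0 in exactly 3 libraries, of which Igkv7-33 had the highest single value at 8.70 FPKM. The 12 genes just outside were above 0 in exactly 2 libraries, the highest being Igkv12-38 at 5.55 FPKM.

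The study sorted erythroblasts from the bone marrow of wild-type C57/BL6 male mice aged 8 weeks and sequenced their RNA to follow terminal erythroid differentiation. The groups were proerythroblasts (Pro), and basophilic (Baso), polychromatic (Poly) and orthochromatic (Ortho) erythroblasts, untreated and with 3 libraries each. CD45-positive cells had been depleted on magnetic columns, cells stained for CD45, CD11b or GR1 were gated out, Pro cells were taken as CD44-high and Ter119-low, and the other stages were taken from Ter119-positive cells by CD44 and size. The cell type given for Ortho replicates 2 and 3 is erythroblast in general, and their titles put them in the stage. FPKM, a count of fragments scaled to transcript length and library size, is a level per length and relative to all other transcripts of a library, whose FPKM summed to between 505624 and 691033, lowest in Pro and highest in Ortho. The depth behind the values is unknown, so the SD over 3 libraries is the only measure of precision. Hba-a1, an alpha globin gene and 1 of 10 erythroid genes listed, lay between 10629 and 98463 FPKM in the 12 libraries.

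Each antibody chain is encoded by a V segment that B-lineage cells join to J segments, and in the heavy chain also to D segments, by RAG-mediated DNA recombination. The joined V exon is then spliced to a constant exon, so a heavy chain message holds a single V segment and a constant region such as Ighm or Igha, and a kappa message a single V segment and Igkc. The choice of V segment differs between B-cell clones, and a plasma cell makes large amounts of the message of its own clone. Bone marrow is where B cells arise and where long-lived plasma cells reside, beside the erythroblasts.

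V genes of a family resemble each other closely, which limits how far reads can be assigned to a single member. In the GENCODE M21 transcripts (GRCm38, the build mm10 of the files), all 207 members had a sequence of at least 250 bases, and the median identity to the nearest other V gene was 95.2%. For 109 members the nearest V gene was at least 95% identical, and Ighv1-62-2 and Ighv1-71 were identical over all 302 bases. How reads matching several V genes were counted is not given in the sources used here. A value of one of these members is thus uncertain against its nearest V gene by sequence. The kappa pair with the highest levels, Igkv1-117 and Igkv1-110, is shown first because their levels are compared below. The sequences are the last 300 bases of their second exon on the plus strand, Igkv1-117 at chr6:68121528-68121827 and Igkv1-110 at chr6:68270968-68271267, and capitals mark the 10 bases that differ.
Igkv1-117: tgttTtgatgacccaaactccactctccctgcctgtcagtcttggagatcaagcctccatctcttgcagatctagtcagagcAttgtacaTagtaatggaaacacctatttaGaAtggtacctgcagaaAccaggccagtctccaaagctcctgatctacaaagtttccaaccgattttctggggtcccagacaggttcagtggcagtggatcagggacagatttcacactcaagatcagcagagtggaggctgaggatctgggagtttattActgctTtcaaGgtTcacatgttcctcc
Igkv1-110: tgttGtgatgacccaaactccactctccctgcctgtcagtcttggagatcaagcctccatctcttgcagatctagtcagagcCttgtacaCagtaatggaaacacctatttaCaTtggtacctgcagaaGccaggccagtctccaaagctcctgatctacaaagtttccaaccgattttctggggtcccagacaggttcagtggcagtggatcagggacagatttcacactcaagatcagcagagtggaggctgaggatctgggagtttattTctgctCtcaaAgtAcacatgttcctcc
Counted from 1 at the 5′ end of these stretches, with the base of Igkv1-117 first, the differences are T5G, A83C, T91C, G113C, A115T, A130G, A273T, T279C, G284A and T287A.

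The 3′ end of the V exon, which holds the conserved cysteine codon just before the junction with D or J, is shown for the leading Ighv member, the Igkv member with the largest fitted increase, the only other Igkv gene to lead a library, and the leading lambda gene. Each is the last 120 coding bases, read on the gene's own strand. Ighv1-81 lies at chr12:115920279-115920398 on the minus strand, Igkv6-32 at chr6:70074024-70074143 on the minus strand, Igkv15-103 at chr6:68437806-68437925 on the plus strand and Iglv1 at chr16:19085017-19085136 on the minus strand. Capitals mark matches to TANTNNTGN, 3 codons that start with TA, T and TG, which admits tyrosine, then phenylalanine or tyrosine, then cysteine, among others.
Ighv1-81: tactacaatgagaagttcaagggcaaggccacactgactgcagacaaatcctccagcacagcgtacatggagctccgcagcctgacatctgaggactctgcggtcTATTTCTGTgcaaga
Igkv6-32: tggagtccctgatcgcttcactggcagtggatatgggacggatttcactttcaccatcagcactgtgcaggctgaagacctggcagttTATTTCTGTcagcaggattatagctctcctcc
Igkv15-103: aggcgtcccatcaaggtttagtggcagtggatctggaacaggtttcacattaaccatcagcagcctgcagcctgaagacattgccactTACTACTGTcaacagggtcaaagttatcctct
Iglv1: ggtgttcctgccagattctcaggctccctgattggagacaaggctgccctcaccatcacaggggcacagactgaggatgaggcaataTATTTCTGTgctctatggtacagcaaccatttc
On the gene's strand, the last 60 bases of the transcript held this motif in 181 of the 188 members annotated as V genes (96.3%) and in 16 of the 19 annotated as V pseudogenes (84.2%). On the opposite strand it was found in 10.1% of the 188. In the middle 60 bases of 1 transcript of each of 21738 protein-coding genes, it was found in 4.24% on the sense and 4.01% on the opposite strand.

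V gene transcripts were detected in all 12 libraries, and their summed level was higher in each later stage than in Pro. The 207 members summed to 447, 478 and 331 FPKM in Pro replicates 1 to 3. They summed to 958, 627 and 688 FPKM in Baso, 1245, 834 and 1001 FPKM in Poly, and 1550, 904 and 992 FPKM in Ortho. All Pro libraries lay below all others, whereas Baso, Poly and Ortho overlapped, and replicate 1 was the highest library of each of these 3 stages. The mean of Pro was 418 ± 77.6 FPKM, that of Baso 758 ± 176, that of Poly 1027 ± 206 and that of Ortho 1149 ± 351 (SD, n = 3), which is 1.81, 2.45 and 2.74 times Pro. Since FPKM is relative, the folds moved with scaling: with every library set to the same sum they were 1.60, 2.17 and 2.13, and with hemoglobin genes left out 2.25, 3.11 and 3.84. In these bulk libraries, more cells carrying V transcripts, more V RNA per cell and a lower amount of other RNA cannot be told apart.

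Replicate by replicate, the summed V level of Ortho was 3.47, 1.89 and 3.0 times that of the Pro library with the same number. Poly was 1.3, 1.33 and 1.45 times Baso, and Ortho was 1.25, 1.08 and 0.991 times Poly. The step from Poly to Ortho was smaller than the spread within either stage. V transcripts made up 0.0632% to 0.0908% of the FPKM of a Pro library and 0.131% to 0.236% of an Ortho library. Members above 0 numbered 118 to 131 in Pro and 140 to 156 in Baso, then 158 to 172 in Poly and 171 to 181 in Ortho, and 51 members were above 0 in all 12 libraries. In Pro, 33 members were listed at 0 in all 3 libraries. Since the rule asked for detection in at least 3 of the 12 libraries, a member could enter through later stages alone. These counts thus partly follow from the rule, and detection over all genes was not compared. Members at 10 FPKM or more numbered 9 to 11 in Pro and 23 to 51 in Ortho.

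**Figure D1:**
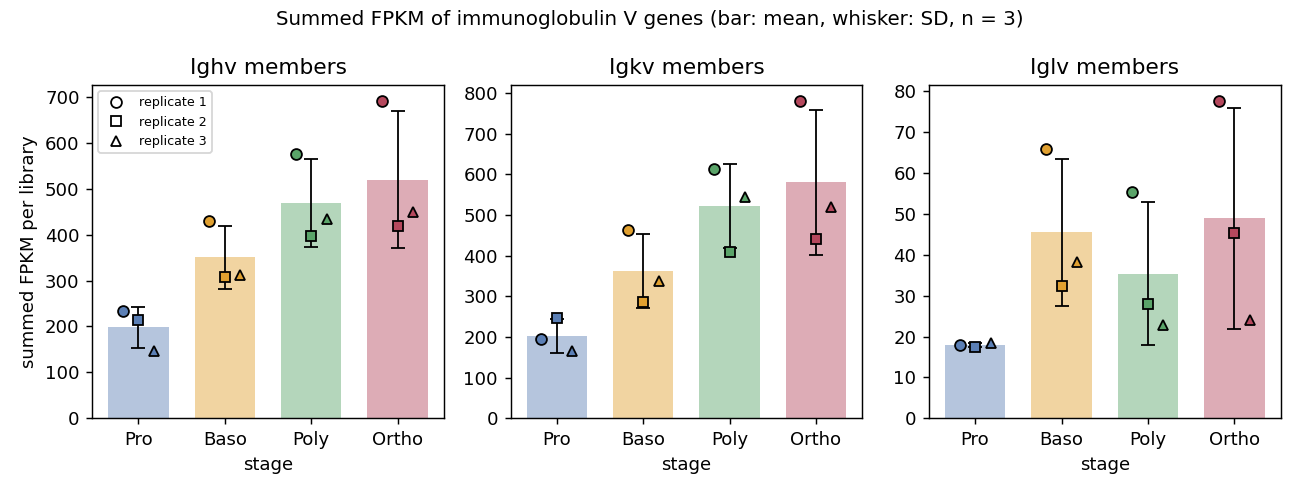
Summed FPKM of the members of each locus (y axis, linear from 0) by stage (x axis). Bars are means, whiskers SD of 3 libraries, and symbols the libraries by replicate number. Every Pro library lies below every later library for Ighv and Igkv, and replicate 1 is highest in Baso, Poly and Ortho in all 3 loci.

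The 2 larger loci followed each other. The Ighv members, which encode the heavy chain V regions, summed to 233, 213 and 147 FPKM in Pro and 431, 308 and 313 in Baso, then 577, 397 and 433 in Poly and 692, 419 and 449 in Ortho. The Igkv members summed to 196, 247 and 165 FPKM in Pro and 462, 286 and 338 in Baso, then 613, 409 and 544 in Poly and 781, 440 and 519 in Ortho. Both loci were without overlap between Pro and each later stage, and the mean in Ortho was 2.63 times Pro for Ighv and 2.86 times for Igkv. The ratio of the Ighv sum to the Igkv sum lay between 0.796 and 1.19 in the 12 libraries. The 3 lambda genes were lower, at 17.9, 17.5 and 18.5 FPKM in Pro and 65.9, 32.4 and 38.1 in Baso, then 55.3, 28.0 and 22.9 in Poly and 77.7, 45.3 and 23.9 in Ortho. They made up 4.03% to 12.5% of the light chain V FPKM, and here replicate 3 of Poly and of Ortho lay close to the Pro libraries.

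A few members carried a large share of the sum. The 10 highest members of a library held 35.1% to 50.6% of its V FPKM in Pro and 32.4% to 42.0% in Ortho. By family, the 58 Ighv1 members held 28.2% of the V FPKM over all libraries, and the 11 Igkv1 members 14.6%. The 9 Igkv6 members held 4.76% and went from 10.01 ± 9.82 FPKM in Pro to 60.8 ± 18.6 in Ortho (SD, n = 3), a ratio of 6.07 against 2.46 for Ighv1 and 2.54 for Igkv1. Such a ratio was not particular to Igkv6, with 6.39 in Ighv2 and 5.92 in Igkv14, while Igkv4, which held 4.78%, had 2.11. Within Igkv6, Igkv6-32 alone went from a mean of 0.234 FPKM in Pro to 18.2 in Ortho. Families other than Ighv1 and Igkv1 were named after their values were seen. The Igkv6 libraries overlapped between Pro, at 0.774 to 20.3 FPKM, and Baso, at 15.9 to 84.6 FPKM, but not between Pro and Ortho. The 19 pseudogenes, which cannot give a functional chain, held 0.396% of the V FPKM with a median level of 0.113 FPKM, against 2.59 FPKM for the 188 genes annotated as functional type. The highest pseudogene was Ighv1-41 with a mean of 1.56 FPKM, the only pseudogene to pass the filter of the stage tests.

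Ighv1-81 (chr12:115920279-115920712, minus strand) was the highest Ighv member in all 12 libraries. Its level was 35.1, 53.0 and 20.5 FPKM in Pro and 52.2, 52.4 and 56.8 in Baso, then 59.7, 68.3 and 51.8 in Poly and 95.5, 66.7 and 82.0 in Ortho. The 3 Ortho libraries were above all Pro libraries, whereas Pro overlapped Baso and Poly. On the log2(FPKM + 1) scale it was higher in Ortho than in Pro by 1.23 (SE 0.26, adjusted p = 0.00108, limma). The increase was 0.89 and no longer reached the fold limit without Pro replicate 3.

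Ighv1-26 was the second Ighv member, with 13.8, 10.3 and 18.8 FPKM in Pro and 31.5, 22.0 and 29.6 in Baso, then 43.1, 23.2 and 13.2 in Poly and 54.9, 28.4 and 42.8 in Ortho. Baso and Ortho lay above Pro in every library, and Poly replicate 3 fell within the Pro range. It rose in Ortho by 1.48 (SE 0.37, adjusted p = 0.00318, limma). Ighv3-6 had 8.72, 6.71 and 0.816 FPKM in Pro and 35.5, 9.04 and 14.0 FPKM in Ortho, a log2 difference of 1.78 (SE 0.66, adjusted p = 0.0273, limma) that was not called without Pro replicate 3 (1.03) or without Ortho replicate 1. Ighv3-8 was at 0, 6.83 and 0.326 FPKM in Pro and at 16.6, 14.4 and 1.74 in Ortho, and its log2 difference of 2.05 had an adjusted p of 0.148. Ighv8-8 had 6.24, 7.19 and 0 FPKM in Pro and 8.82 to 10.96 in Ortho (1.44 on the log2 scale, adjusted p = 0.054). It was called higher in Baso (1.59, adjusted p = 0.0481) and in Poly (1.62, adjusted p = 0.0389).

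Among the kappa genes, Igkv1-117 led in 9 libraries, Igkv1-110 in Poly replicate 3 and Ortho replicate 1, and Igkv15-103 in Baso replicate 1. Igkv1-117 had 17.1, 49.7 and 26.8 FPKM in Pro and 27.6, 66.2 and 59.9 in Baso, then 59.9, 72.5 and 69.6 in Poly and 56.4, 70.9 and 94.95 in Ortho. Igkv1-110, which differs from it at the 10 marked bases, had 15.2, 48.9 and 24.3 FPKM in Pro and 52.9, 25.1 and 30.3 in Baso, then 56.7, 43.5 and 73.8 in Poly and 97.8, 49.5 and 67.7 in Ortho. In Pro the levels of both genes were close in each library. In Baso and Ortho Igkv1-110 was the higher in replicate 1 and Igkv1-117 in replicates 2 and 3. Poly differed from this, with Igkv1-117 the higher in replicates 1 and 2 and Igkv1-110 in replicate 3. Igkv1-117 and Igkv1-110 were higher in Ortho than in Pro, by 1.32 (SE 0.37, adjusted p = 0.00722) and 1.35 (SE 0.40, adjusted p = 0.00903) in limma. Neither was called without Pro replicate 1, where the differences were 0.97 and 0.98.

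Igkv10-96 had 1.51, 15.5 and 1.10 FPKM in Pro and 21.2, 29.1 and 8.53 in Ortho, so Pro replicate 2 lay within the Ortho range. Its increase of 2.07 (SE 0.76, adjusted p = 0.0264, limma) was lost in 4 of the 12 fits that left out a library, with values of 1.53 to 3.01 over the 12. Those 4 were the fits without Pro replicate 1 or 3 or Ortho replicate 1 or 2. Igkv9-120 had 9.27, 1.08 and 0.0876 FPKM in Pro and 20.9, 16.0 and 18.5 in Ortho, without overlap (2.77, SE 0.73, adjusted p = 0.00477, limma).

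Igkv6-32 (chr6:70074024-70074603, minus strand) had the largest fitted increase in each comparison with Pro. It was at 0, 0.225 and 0.478 FPKM in Pro and 49.2, 13.0 and 0.853 in Baso, then 23.6, 6.53 and 13.2 in Poly and 24.6, 18.2 and 11.6 in Ortho. All later libraries lay above Pro, and the Baso libraries spread over a wider range than those of the other stages. The log2 differences from Pro were 3.16 (SE 0.90, adjusted p = 0.0107) in Baso, 3.50 (adjusted p = 0.00495) in Poly and 3.92 (adjusted p = 0.00194) in Ortho. Without Baso replicate 1 the difference in Baso was 2.06, the lowest of the 12 fits that left out a library. The nearest V gene, Igkv6-17, was 84.4% identical, against the median of 95.2%. Igkv15-103 varied widely between libraries of a stage, with 9.84, 0 and 1.42 FPKM in Pro and 52.9, 0.352 and 9.52 in Baso, then 35.4, 16.0 and 2.82 in Poly and 13.7, 3.96 and 11.1 in Ortho. Its stage differences had adjusted p of 0.152 to 0.293.

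The lambda sum was mostly Iglv1, at 13.2, 14.8 and 17.7 FPKM in Pro and 61.0, 14.1 and 35.7 in Baso, then 45.7, 20.0 and 16.3 in Poly and 56.2, 25.3 and 20.5 in Ortho. Iglv2 lay between 0 and 19.1 FPKM, reached in Ortho replicate 1, and Iglv3 between 0.453 and 9.66 FPKM. Iglv1 in Ortho lay above Pro in every library, but its difference of 0.98 had an adjusted p of 0.103. The difference was 2.08 for Iglv2 (adjusted p = 0.0857) and 0.78 for Iglv3 (adjusted p = 0.229), and none of the 3 was called in any comparison.

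**Figure D2:**
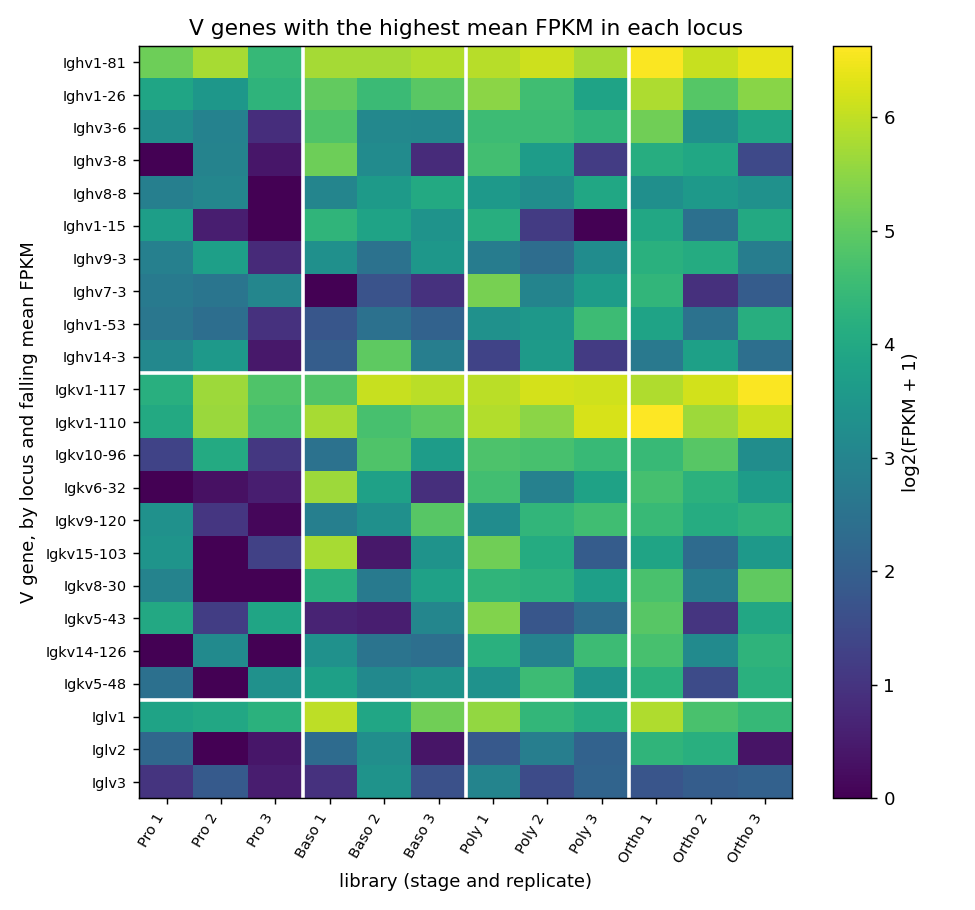
Level as log2(FPKM + 1) (colour) of the 10 Ighv, 10 Igkv and 3 Iglv members with the highest mean FPKM (rows) in the 12 libraries (columns). Ighv1-81, Igkv1-117 and Igkv1-110 are high in every library, and lower members such as Igkv15-103 and Ighv3-8 differ between libraries of the same stage.

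To compare stages over the whole table, log2(FPKM + 1) was fitted with limma for the 12994 genes at 1 FPKM or more in at least 3 libraries. Of the 207 members, 138 passed this filter (72 Ighv, 63 Igkv and 3 Iglv) and 69 did not. A member could pass through the stage in which it is high, and the family was picked with results known, so its counts are a description. A call needed an adjusted p under 0.05 over all genes tested and a log2 difference of at least 1. The comparisons with Pro share the Pro libraries.

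Baso was higher than Pro in 10 members and lower in 0, where 1.82% of all genes tested were called higher and 8.54% lower. Without the adjustment, 15 members had p under 0.05 with a higher and 2 with a lower level (share over all genes not calculated). The largest increases were those of Igkv6-32 (3.16), Igkv8-21 (2.94) and Igkv8-30 (2.58). Igkv8-21 went from 0.417, 0 and 0 FPKM in Pro to 9.90, 7.57 and 5.92 FPKM in Baso. Libraries did not overlap and were higher in Baso for 9 members, or 6.52% of those tested, against 16.8% of all genes tested, and were lower for 1, against 44.2%. The call of Igkv8-30 was lost without Baso replicate 1, Pro replicate 2 or Pro replicate 3 (2.08 to 3.56 over 12 fits). The count of calls was 16 without Baso replicate 2, and with the replicate number as a block 15 members were called, 13 higher and 2 lower.

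Poly was higher than Pro in 34 members, 17 Ighv and 17 Igkv, where 3.59% of all genes were called higher. It was lower in 1 member, Ighv1-77, where 12.8% of all genes were called lower. Increases were largest for Igkv6-32 (3.50), Igkv8-30 (3.13) and Ighv8-12 (2.94). Igkv8-30 was at 6.76, 0 and 0 FPKM in Pro and 19.2, 18.2 and 12.4 in Poly, and Ighv8-12 at 0.325 to 0.689 FPKM in Pro and 5.80, 5.62 and 34.5 in Poly. Ighv1-77 had 8.87, 0.0423 and 7.42 FPKM in Pro, 0.0750 to 0.130 in Poly and 4.37, 0.250 and 7.57 in Ortho, so it was low in Pro replicate 2 as well. Its decrease in Poly (log2 difference -2.0, adjusted p = 0.0455) was lost in 9 of 12 fits that left out a library and kept without Pro replicate 2 or Ortho replicate 2 or 3. Libraries of 34 members did not overlap and were higher in Poly, or 24.6% of those tested, against 25.3% of all genes tested, and 1 was lower without overlap, against 44.5%. The 35 calls became 20 without Poly replicate 1 and 23 without Pro replicate 3.

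Ortho was higher than Pro in 41 members, 20 Ighv and 21 Igkv, and lower in 0, where 6.33% of all genes were called higher and 23.8% lower. Without the adjustment 47 members had p under 0.05 with a higher level and 0 with a lower one (share over all genes not calculated). After Igkv6-32, the largest increases were those of Igkv6-15, from 1.56, 0.705 and 0 FPKM in Pro to 17.3, 7.98 and 19.1 in Ortho, and of Igkv8-30, which reached 25.3, 5.88 and 31.4 FPKM (both 3.19). Libraries of 54 members did not overlap and were higher in Ortho, or 39.1% of those tested, against 23.2% of all genes tested. The count of calls lay between 29 and 47 in the fits that left out a library. Of 50 members called higher in any later stage against Pro, 26 were called in both Poly and Ortho, 7 in both Baso and Poly, 7 in both Baso and Ortho, and 5 in all 3.

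For the tested members the median log2 difference from Pro was 0.51 (Baso), 1.03 (Poly) and 1.20 (Ortho), beside medians of all genes tested of -0.23, -0.20 and -0.42. In Ortho the median was 1.09 for the Ighv and 1.32 for the Igkv members. The difference was above 0 in 107, 121 and 129 of the 138 members. The highest mean of the 4 stages was in Ortho for 90 of the 207 members, in Poly for 73, in Baso for 35 and in Pro for 9. A member at 0 in every Pro library, as 33 of the 207 were, could not be highest there. The shares over all genes were not calculated for these counts.

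**Figure D3:**
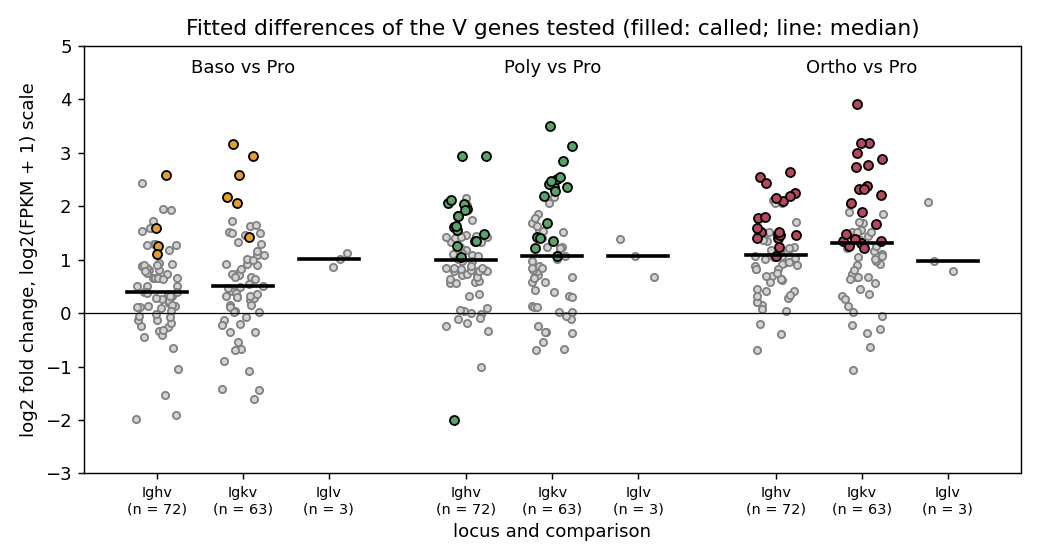
Fitted log2 difference from Pro, on the log2(FPKM + 1) scale (y axis), of the 138 tested members by locus and comparison (x axis). Coloured points were called, grey points were not, and lines are medians. Most points lie above 0 in Poly and Ortho, and no Iglv member was called.

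Between neighbouring later stages few members differed. Poly was higher than Baso in 1 member, Ighv7-3, where 0.0616% of all genes were called higher and 0.454% lower. The log2 difference was 3.08 (SE 0.79, adjusted p = 0.0315), and it was not called without Baso replicate 1 or 3 or Poly replicate 1 or 3 (2.43 to 3.57 over 12 fits). Ighv7-3 was at 0, 2.25 and 0.934 FPKM in Baso and 37.2, 6.88 and 11.6 in Poly, but at 5.63, 4.99 and 7.20 in Pro and 19.5, 0.875 and 2.82 in Ortho, so Baso lay below Pro and Poly replicate 2 within the Pro range. With the replicate number as a block, which pairs these stages, 7 members were called (6 higher and 1 lower) when Pro was left out of the fit and 4 with all libraries in it. The count was 2 to 4 in 9 of the 12 fits that left out a library, the highest without Pro replicate 1. Libraries of 13 members did not overlap and were higher in Poly, against 20.5% of all genes tested.

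Ortho was higher than Poly in 3 members, Igkv6-20, Ighv1-62-2 and Igkv3-4, where 1.05% of all genes were called higher and 4.81% lower. Their log2 differences were 1.59, 1.19 and 1.56 (adjusted p = 0.0436, 0.0218 and 0.0218, limma), all at low levels. Igkv6-20 was not called in 9 of 12 fits that left out a library, Igkv3-4 in the 5 without Ortho replicate 1 or 2 or any Poly library, and Ighv1-62-2 in the 3 without Ortho replicate 1 or Poly replicate 1 or 3. Ighv1-62-2 was at 0.239, 0.471 and 0.398 FPKM in Poly and 3.64, 1.55 and 1.55 in Ortho. Ighv1-71, identical to it in sequence, was at 0.24, 0.774 and 0.471 FPKM in Poly and 2.397, 0.705 and 1.07 in Ortho. The log2 difference of Ighv1-71 was 0.63, with an adjusted p of 0.256 in limma. The replicate block gave 8 calls (7 higher and 1 lower) without Pro in the fit and 5 with it. The 3 calls became 1 without Poly replicate 3 and 5 without Baso replicate 1. Libraries of 10 members did not overlap and were higher in Ortho, against 11.3% of all genes tested, and 1 was lower, against 31.3%. Beside the median over all genes of -0.08, the median log2 difference of the members was 0.12. The genes named in the last 2 comparisons were chosen after their values were seen.

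Constant region genes, which the choice of members did not use, were next compared with the V sums. Igkc, the kappa constant region, had 281, 250 and 166 FPKM in Pro and 448, 299 and 331 in Baso, then 634, 415 and 527 in Poly and 734, 415 and 486 in Ortho. It was higher in Ortho than in Pro by 1.22 (SE 0.25, adjusted p = 0.001, limma), and was not called without Pro replicate 3 or Ortho replicate 1, with 0.98 as the lowest value. The Igkv sum was 0.696 to 1.07 times Igkc in each library. The Ighv sum was 0.544 to 0.684 times the summed heavy chain constant genes, and the Iglv sum 0.813 to 1.25 times the summed Iglc genes. The ratio to the constant genes thus varied less between libraries than the sums themselves did. For heavy and kappa chains alike, Pro replicate 3 was lowest and Ortho replicate 1 highest on V and constant genes.

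**Figure D4:**
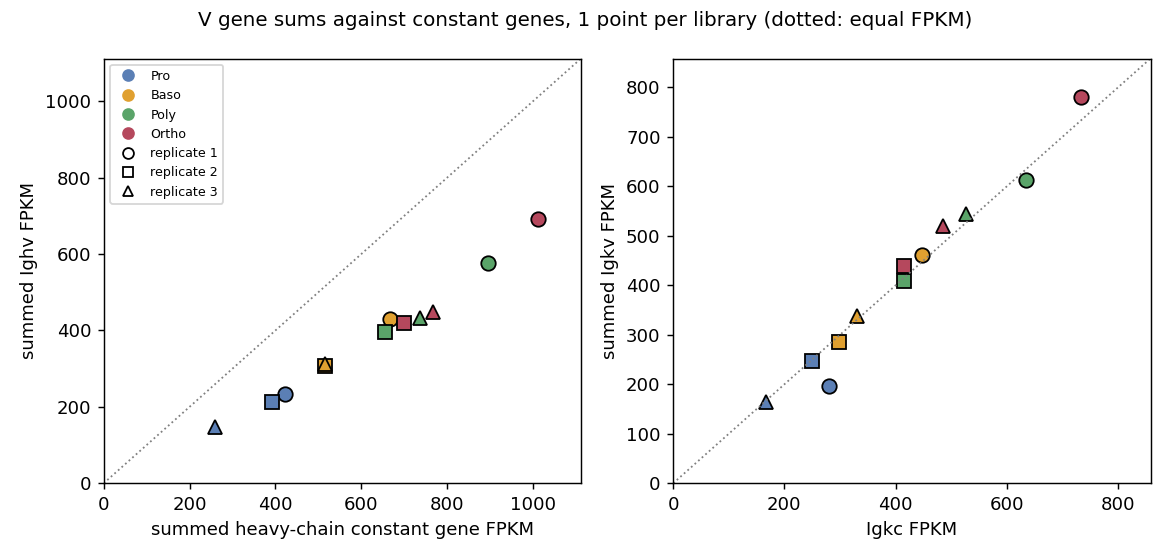
Summed Ighv FPKM against summed heavy chain constant gene FPKM (left) and summed Igkv FPKM against Igkc FPKM (right), with linear axes and 1 point per library, coloured by stage and shaped by replicate number. Dotted lines mark equal FPKM, and the ratio is 0.544 to 0.684 on the left and 0.696 to 1.07 on the right.

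Of the heavy chain constant genes, Igha, the constant region of IgA, held 41.8% to 58.7% of the summed heavy constant FPKM, Ighm, of IgM, 20.8% to 39.3%, and the 4 Ighg genes of IgG 10.2% to 27.1%. Ighm had 87.8, 138 and 99.7 FPKM in Pro and 181, 172 and 172 in Baso, then 259, 255 and 256 in Poly and 308, 275 and 276 in Ortho. Stages did not overlap for Ighm, and it was higher in Ortho than in Pro by 1.42 (SE 0.13, adjusted p = 1.61e-06, limma). Igha had 248, 205 and 116 FPKM in Pro and 459, 293 and 392 in Ortho (1.05, SE 0.25, adjusted p = 0.00217). It was not called without Pro replicate 3 (0.73) or without Ortho replicate 1. Ighg2c went from 18.9, 3.96 and 6.56 FPKM in Pro to 103, 34.2 and 31.0 in Ortho (2.43, SE 0.61, adjusted p = 0.00332). Jchain, which links the units of secreted IgM and IgA, went from 14.3, 13.5 and 22.2 to 90.8, 56.8 and 25.01 (1.58, SE 0.42, adjusted p = 0.00507).

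Over the list of 14 constant and J chain genes, 12 were tested. None was called in Baso, where 6 had an unadjusted p under 0.05 and 4 an adjusted p under 0.05 in limma. Shares over all genes were not calculated for p without the fold limit. In Poly 6 were called higher (Igkc, Ighm, Jchain, Ighg2c, Iglc3 and Ighd), and in Ortho 7, with Igha added, of which Ighd was lost without Pro replicate 1 (0.88). The shares of all genes tested called higher than in Pro were 1.82% in Baso, 3.59% in Poly and 6.33% in Ortho. Iglc3 reached 15.4, 14.7 and 12.2 FPKM in Ortho. None was called between Baso and Poly or between Poly and Ortho, where 3 and 0 had an unadjusted p under 0.05. The median log2 difference from Pro was 0.72, 1.16 and 1.31 in the 3 later stages. Iglc1, Iglc2, Ighg1 and Ighg2b had adjusted p of 0.0561 to 0.218 in Ortho, and Ighg3 was at 10.4, 0 and 0 FPKM there with no stable direction between fits. Ighe reached 2.90 FPKM in Poly replicate 1 and was at 0 in Pro and Ortho, and Iglc4 was at most 0.117 FPKM. By exact permutation of the libraries over the stages, 5 of 12 genes differed between stages after adjustment over the 12. The exact test was run on this list alone, so the share over all genes is not known. The 5 genes were Ighm (adjusted p = 0.000779, at the smallest p possible of 6.49e-05), Ighd (0.0164), Igkc and Igha (0.0212 each) and Jchain (0.0343). With every library scaled to the same sum the exact test left 1 gene, and with hemoglobin left out 7.

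Of the 10 erythroid genes listed, 4 were called higher in Ortho than in Pro, Hba-a1 among them, and 3 lower. The 3 were Klf1 (-2.19), Gata1 (-2.04) and Epor (-1.66). Over all genes tested, 6.33% were called higher in Ortho than in Pro and 23.8% lower. Markers of other bone marrow cells changed between stages beside the V genes. All 10 genes of the pro- and pre-B cell list were tested, and 9 were called higher in Ortho than in Pro. Its sum was 62.4 to 104 FPKM in Pro and 144 to 208 in Ortho. Its highest genes were the surrogate light chain genes and their partners: Vpreb3 was at 18.2, 26.3 and 18.3 FPKM in Pro and 34.4, 54.9 and 64.3 in Ortho, and Igll1 and Vpreb1 were called as well. Of the B cell list of 15, 12 were tested and 6 called higher, with sums of 103 to 133 FPKM in Pro and 251 to 275 in Ortho. Cd79b and Cd79a, the signalling chains of the B-cell receptor, rose by 1.37 (adjusted p = 8.49e-06) and 1.41 (adjusted p = 5.29e-05) on the log2 scale, whereas Cd74 differed by 0.95, below the fold limit. Cr2 and Cxcr5 of mature B cells were the 2 genes of the 15 that stayed under 1 FPKM in every library. Ighd of the same list was called higher in Ortho (1.13).

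Of the plasma cell list of 16, 14 were tested and 6 called higher in Ortho, where 6.33% of all genes tested were called higher. Its sums were 182 to 202 FPKM in Pro and 252 to 343 in Ortho. Besides Jchain, its highest genes Xbp1 and Txndc5, which serve the secretory pathway, differed by 0.32 and -0.39, neither of which was called. The genes called with Jchain, named because they were called, were Pou2af1 (1.27), Irf4 (1.21), Tnfrsf13b (1.18), Slamf7 (1.15) and Mzb1 (1.10). Without the fold limit, 11 of the 14 had an adjusted p under 0.05 in limma with a higher and 1 with a lower level. The share of all genes tested at that limit was not calculated, and 6.33% holds for calls alone. Prdm1, a defining gene, was at 0.0465 to 0.408 FPKM. Sdc1, another gene of that list, was at 1.05 to 1.72 FPKM in Pro and 2.42 to 3.49 in Ortho. Its log2 difference of 0.80 was below the fold limit, and it was named after its values were seen. Of the 10 neutrophil genes, 4 were called higher, and their sum was 7243 to 8832 FPKM in Pro and 13961 to 17475 in Ortho, of which S100a9, S100a8 and Ngp were the highest. Of the T and NK cell list of 12, 6 were tested and 1 called higher. Its highest genes were Nkg7, with 20.2 to 27.3 FPKM in Pro and 31.6 to 37.4 in Ortho (0.56, not called), Lck (-0.08, not called) and Gzma (1.0, called). Of its 6 genes under 1 FPKM in every library, Cd3e and Cd3g of T cells were at 0.0534 FPKM or below. The macrophage list had 2 of 4 tested genes called higher, Cd68 and Csf1r. Adgre1 at 0.88 was not called, nor was Vcam1 at -0.31, named after its value was seen. In this list 5 of the 10 genes, among them C1qb and Cd5l, stayed under 1 FPKM. The megakaryocyte and platelet list had 3 of 7 called lower and 0 called higher, where 23.8% of all genes tested were called lower. Itga2b at 0.39 was not called, and Pf4 (-1.79) and Gp9 (-1.96) were among the 3. These values moved beside the V genes, and their part in the V levels was not tested.

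Of the genes of DNA end joining and repair listed, such as Lig4 and Prkdc, 8 were tested, of which limma called 0 higher and 2 lower in Ortho, where 23.8% of all genes tested were called lower. Without the adjustment, 1 had p under 0.05 with a higher and 6 with a lower level (share over all genes not calculated). The median log2 difference of the 8 was -0.84, beside -0.42 for all genes. Their highest genes were Xrcc6 (-0.86, not called), Ung (-1.20, called) and Dclre1c (-0.06, not called). Within the pro- and pre-B cell list, Rag1, which cuts at the V segments, was at 2.66 to 4.14 FPKM in Pro and 8.85 to 12.4 in Ortho (1.36, adjusted p = 1.67e-05). Its partner Rag2 was at 0.666 to 1.07 FPKM in Pro and 1.47 to 3.61 in Ortho (0.84, adjusted p = 0.00601), below the fold limit and the 1 gene of that list not called. J genes were also detected, with the 4 Ighj genes at 23.1 to 37.3 FPKM in Pro and 36.9 to 56.9 in Ortho, and the 5 Igkj genes at 14.5 to 22.3 and 29.6 to 40.0. T cell receptor V genes, selected by the same limit of detection, gave 15 members of 40 listed. They summed to 3.10 to 4.83 FPKM in Pro and 2.14 to 3.24 in Ortho, and 1 of them passed the filter. Rag1 and Rag2 were named after their values were seen.

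Libraries with the same replicate number deviated together in their V genes across stages. The correlation of V gene deviations from the stage mean, over 138 genes, was 0.0898 to 0.347 between libraries of the same number in different stages, above 0 in 18 of 18 pairs. Between libraries of different numbers it was -0.291 to 0.107, above 0 in 6 of 36 pairs. Deviations within a stage sum to 0, which pushes the latter values below 0, and genes are not independent replicates. Among Baso, Poly and Ortho the same-number range was 0.128 to 0.347 for V genes and 0.156 to 0.319 for all genes tested. It was thus not particular to V genes in those stages. With Pro the range was 0.0898 to 0.303 for V genes and 0.00524 to 0.0968 for all genes tested. On log2(FPKM + 1) of all 207 members, the median correlation was 0.623 for the same number in another stage, 0.569 for another number in another stage and 0.563 within a stage. What the libraries of a number share is not given in the labels.

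The same replicate number was the highest in all 4 stages for 19 of the 138 tested members (13.8%), against 7.69% of all genes tested. Replicate 1 was that number for 14, replicate 2 for 4 and replicate 3 for 1. Replicate 1 also had the highest V sum in Baso, Poly and Ortho, so these counts carry the V level of a library as well. Ighv14-3 was highest in replicate 2 throughout, with 11.1 FPKM in Pro and 30.7 in Baso, then 11.3 in Poly and 12.6 in Ortho, where the other libraries lay between 0.341 and 7.61. Igkv6-13 was similar, at 7.57, 16.7, 4.75 and 4.75 FPKM in replicate 2, with replicate 3 close behind in Poly (4.03) and Ortho (3.88). Ighv1-66 was highest in replicate 1, at 5.13, 6.35, 6.15 and 8.41 FPKM, and at 0 in 6 of the other 8 libraries. Ighv3-6 and Igkv15-103, described above, were highest in replicate 1, and Igkv2-109 was the member highest in replicate 3, with 7.63, 8.24, 7.10 and 14.1 FPKM. These genes were chosen after their values were seen.

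Positions of the members in both large loci were set beside their levels. In Ighv, where all 111 members share the strand of the J genes, members lay 149 to 2570 kb from the nearest J gene. The 24 members beyond 2017 kb held 36.3% of the Ighv FPKM in Pro and 33.2% in Ortho, and the 32 within 747 kb held 18.4% and 22.2%. Of the 71.8 FPKM of the 24 in Pro and 172.6 in Ortho, Ighv1-81 alone gave 36.2 and 81.4. In Igkv, members lay 18.4 to 3166 kb away, and the 22 beyond 2410 kb, among them Igkv1-117 and Igkv1-110, had 43.9% of the Igkv FPKM in Pro and 41.2% in Ortho. Here 37 members lie on the strand of the J genes and join by deletion, and 56 lie on the opposite strand and join by inversion. The 37 summed to 116 FPKM in Pro and 303 in Ortho, 2.61 times, and the 56 to 86.2 and 276 FPKM, 3.21 times. These sums are means of 3 libraries, and the difference between strands was not tested.

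**Figure D5:**
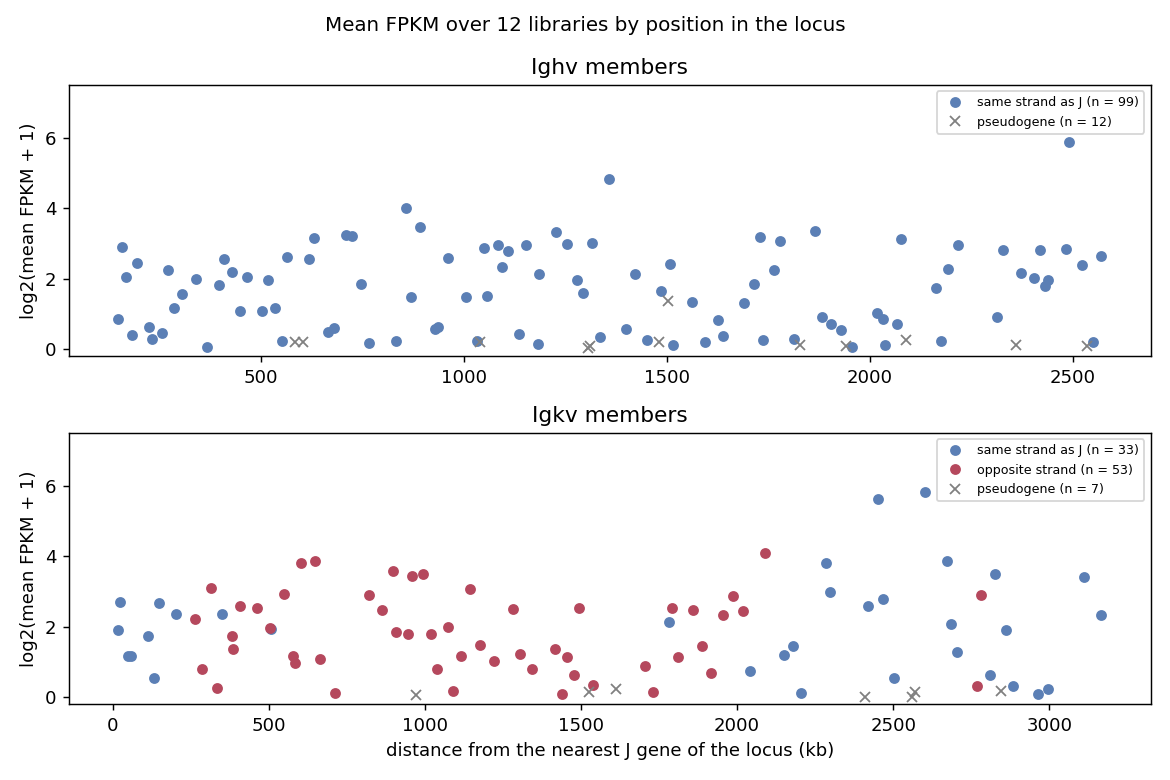
Mean level over the 12 libraries as log2(FPKM + 1) (y axis) against distance from the nearest J gene in kb (x axis) for Ighv (top) and Igkv (bottom) members. Blue and red points are V genes on the strand of the J genes and on the opposite strand, crosses are pseudogenes. High and low members lie side by side along both loci, and pseudogenes lie near 0 except Ighv1-41, with a mean of 1.56 FPKM.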

How the data were processed

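RNA was sequenced from sorted mouse bone marrow erythroblasts, in 12 libraries of 4 stages. Per the labels and the study's methods, the authors trimmed reads with cutadapt and Trimmomatic, used HISAT2 for alignment to mm10 and featureCounts for counting, and deposited FPKM, 1 value per gene and library. Tool versions, the annotation, the tool that calculated the FPKM and the treatment of reads matching several V genes are not given in the sources used here. The methods and the labels name different library kits. In 1819 genes under 0.03 FPKM, the log2 ratio of 2 libraries took no preferred value (3.59% in the commonest bin of width 0.1), so whole reads and depth were not recovered.

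Stages and replicate numbers came from the sample titles. No source says that the 3 libraries of a stage came from separate animals, so p-values measure the spread between these samples, which may be technical. Members and lists were chosen with earlier results of these data known. FPKM were tested with limma 3.58.1 (R 4.3.3, two-sided, variance trend) on log2(FPKM + 1), pseudocount 1, for the 12994 genes that reached 1 FPKM in 3 or more libraries, adjusted by Benjamini-Hochberg, in 5 comparisons. The test was first run on simulated data with 200 changed genes. Such fold changes understate low genes. The authors used DESeq2 on counts, which FPKM do not allow. Positions, gene types and sequences came from GENCODE M21, which held all 207 members, and sequences were compared with edlib 1.3.9.post1 in Python 3.11.15.

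Named V genes were the 5 Ighv and 5 Igkv members with the highest mean, all Iglv members, the top Ighv and Igkv member of each library, and the 3 largest increases and decreases among calls in each comparison with Pro, with all constant and J chain genes, the 3 highest genes of each marker list and defining markers near 0. Genes chosen otherwise are marked. Alternatives were other pseudocounts, filters, scalings, models, the replicate block and leaving out each library. Whether replicate numbers pair libraries was checked from the correlation of deviations from the stage means over all genes. Correlations were 0.156 to 0.319 among the 3 later stages, which the numbers therefore pair, though no label says why, and 0.00524 to 0.0968 with Pro. A withheld item is not reported here.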

Additional observations from a re-analysis of the deposited data

How the results depend on the processing

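Depth is unknown, V genes share reads with near copies, and 3 libraries a stage leave wide errors for members that vary between libraries. The direction of the summed V level over Pro held under every scaling tried. For other changes the cause was not tested. V gene calls in Baso, Poly and Ortho against Pro were 10, 35 and 41. They were 4, 12 and 20 with no filter, and 4, 15 and 21 with a pseudocount of 5. A mean FPKM of at least 5, which left 51 members, gave 20 in Poly and 22 in Ortho, median centring 19 in Baso and 62 in Ortho, and a pseudocount of 0.1 gave 16 in Baso. Between Baso and Poly the 1 call became 0 with no filter, 2 with a pseudocount of 5 or the adjusted p alone, 3 with hemoglobin left out, a mean of at least 5 or a pseudocount of 0.1, and 4 with only these stages. Between Poly and Ortho the 3 calls became 0 with no filter, a mean of at least 5 or a pseudocount of 5, and 5 with median centring or only these stages. The replicate block, which pairs Baso, Poly and Ortho, gave 7 and 4 calls between Baso and Poly (3 stages and all libraries), and 8 and 5 between Poly and Ortho. Of the constant and J chain genes, 0 in Baso became 4 with hemoglobin left out, median centring or the adjusted p alone and 2 with the block, and 7 in Ortho became 4 with the same sum. The 0 between Baso and Poly became 1 with only these stages or the adjusted p alone. In the exact test, alternatives chosen after seeing the data gave 1 gene with the same sum in place of 5. The block moved no other count by over 1.5 times, but of its 15 V calls in Baso 2 were lower, against 0 of 10 without it.

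Leaving out each library gave 7 to 16 V calls in Baso, 20 to 37 in Poly and 29 to 47 in Ortho against Pro, 1 to 4 between Baso and Poly and 1 to 5 between Poly and Ortho. The constant and J chain calls were 0 to 2 in Baso, 4 to 7 in Poly, 6 to 9 in Ortho, and 0 to 1 in both other comparisons. Ighg3 in Ortho, at -0.18 and not called, turned to 0.22 with median centring, and lay between -1.35 and 0.92 when libraries were left out, above 0 without Pro replicate 1 (0.92) and without Ortho replicate 2 or 3 (0.41). Over all alternatives of the named genes, 786 values kept direction and side of the threshold, 75 were no longer called, 30 became called and 4 turned.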
